A study of Mus musculus with 36 samples.

Results

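The genes described here encode the histones, the proteins that package DNA into nucleosomes, as they were read in poly-A selected RNA from C2C12 myotubes. They were taken by name: every protein-coding gene of the count table named as an H1, H2A, H2B, H3 or H4 histone under the current or the older nomenclature of the clusters. This gave 75 of the 55416 genes in the table. A further 9 rows with such names were left out because they were annotated as pseudogenes (8) or as a lncRNA (1). By name, 64 of the 75 were clustered histone genes, 8 were replacement histone genes and 3 were H1 genes of germ cells.

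C2C12 is a mouse myoblast line that fuses into contractile myotubes when serum is lowered. Myotubes were transfected on day 3 of differentiation with an antisense locked nucleic acid (LNA) against the long non-coding RNA Tug1 (Tug1 KD) or with a negative control LNA (control). On day 4 they received electrical pulse stimulation (EPS) for 3 h, which makes them contract, and were lysed at once (EPS 0h) or 3 h later (EPS 3h), while Rest wells held the electrodes without current. The 6 groups held 6 libraries each, 1 per well, and a single Rest group per LNA served as reference for both times. All libraries came from the same line, and the wells came from 2 experiments, so the p-values measure the spread between wells. Which experiment a replicate number belonged to was not given in the labels.

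Most histone protein is made during S phase from clustered genes that lack introns. Their mRNAs normally end not in a poly-A tail but in a short stem-loop, which is bound by the stem-loop binding protein SLBP and cut by a complex built around the U7 small nuclear RNP. Replacement histones such as H3.3 and H2A.Z are encoded by single genes elsewhere in the genome, are made throughout the cell cycle, and have ordinary polyadenylated mRNAs. Myotubes have left the cell cycle, and poly-A selection is meant to keep transcripts with a tail. The counts of a clustered gene here are therefore weighted towards RNA that carried a tail. Whether the RNA counted for a clustered gene had a tail was not measured. How much histone RNA without a tail the cells held was not measured.

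Total counts ran from 17005079 to 24181167 per library (median 19439668), and levels are given as RPM, the count relative to the TMM-scaled library size. Before TMM scaling, 1 count in a library of median depth is worth 0.0514 RPM. The 10 myotube markers summed to between 15141 and 20603 RPM in every library, Myog (myogenin) and Myh3 (embryonic myosin) among them, and 0 of the 10 were called after EPS in control myotubes. In Tug1 KD, Ttn was higher and Tnnt3 lower at EPS 0h, and Ttn was higher and Myog and Mymx lower at EPS 3h. Of all genes tested, 38.9% and 52% were called at EPS 0h and EPS 3h in control, and 45.6% and 52.1% in Tug1 KD. The 8 markers of proliferating myoblasts summed to between 143 and 242 RPM. Tug1 was lower in Tug1 KD at Rest, EPS 0h and EPS 3h, by 0.83 ± 0.17, 0.57 ± 0.17 and 0.51 ± 0.17 on the log2 scale (SE, FDR 9.15e-04, 0.0178 and 0.0414). Its median fell from 47.8 to 25.4 RPM at Rest, and from 77.0 to 51.5 RPM at EPS 3h. Libraries of the LNAs did not overlap at Rest and did after EPS. FDR is the Benjamini-Hochberg adjusted p of the edgeR quasi-likelihood test over all genes tested, a gene is called where it is under 0.05, and log2FC is the log2 fold change. In bulk RNA, fewer cells of a type and less RNA per cell cannot be told apart.

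Detection separated the classes. A gene was tested if 12 or more libraries held 1 RPM or more of it, with RPM here relative to total counts without TMM scaling. All 8 replacement genes met this filter, whereas 15 of the 64 clustered genes and 0 of the 3 germ cell H1 genes did. Replacement genes held 80.8% of the histone counts, clustered genes 19.2%, and all histone genes together held between 0.0881% and 0.153% of a library. Of the clustered genes that did not pass, 6 had no count in any library, 18 had between 1 and 99 counts over the 36 libraries, and 25 had 100 or more. By family, 3 of 6 H1, 1 of 17 H2A, 5 of 17 H2B, 3 of 12 H3 and 3 of 12 H4 clustered genes passed. Of the 6 with no count, 5 share all of their 150-base exonic windows with other annotated genes and H4c2 shares 63.3%, so a read from them may match several genes. Matches on either strand were counted, including genes on the opposite strand at the same place. The part of depth, of reads with several matches and of the missing tail in these zeros was not tested.

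**Figure D1:**
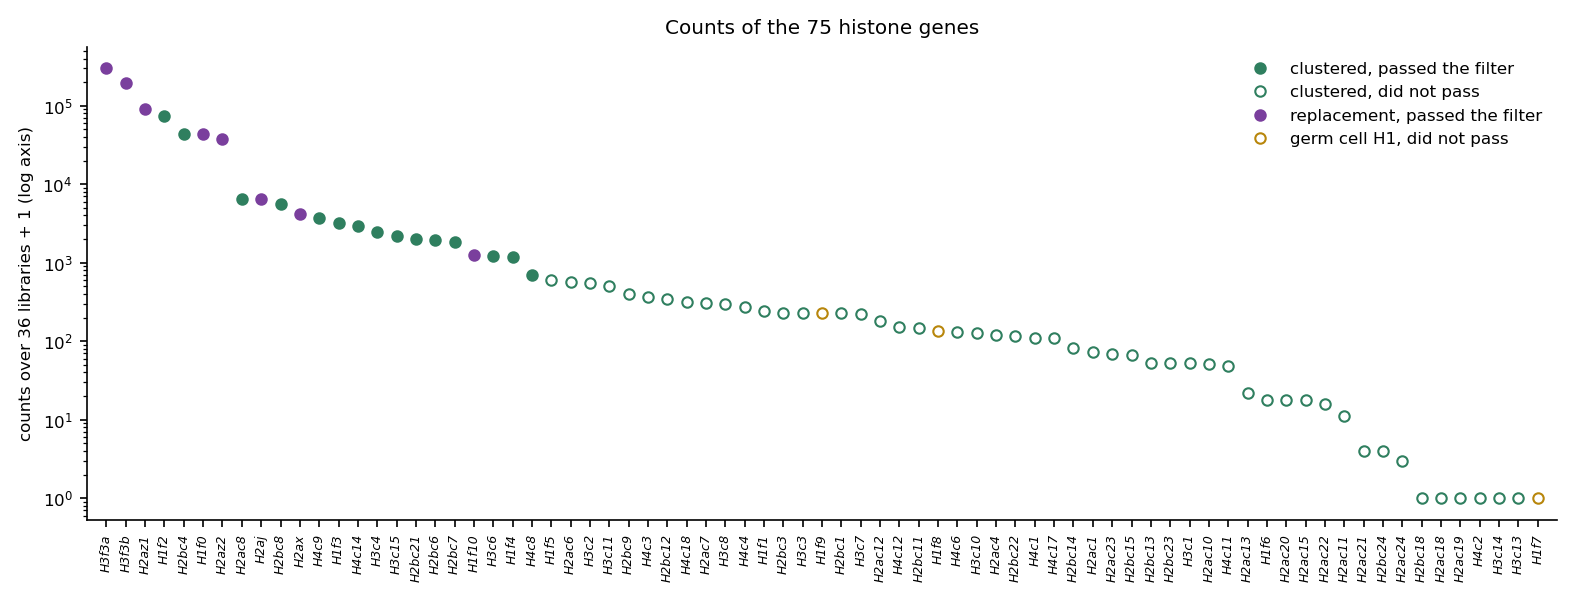
Counts summed over the 36 libraries for each of the 75 histone genes, in order of that sum (vertical axis: counts + 1, log scale). Filled symbols passed the filter and open symbols did not. The 8 replacement genes are all filled, from 1267 to 299000 counts, while 49 of the 64 clustered genes are open.

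The clustered signal came mostly from a pair of genes. H1f2, a somatic linker histone, and H2bc4, an H2B, held 73.3% of all clustered counts, and H3f3a with H3f3b, which encode the same H3.3 protein, held 58.9% of the counts of all 75 genes. Levels of different genes were compared per kilobase of annotated exon. The length was the union of all exons of a gene in GENCODE M39, 6116 bases for H3f3a, 3009 for H3f3b and 7425 for H1f3. The order of genes depends on these lengths. Without this scaling, the median RPM of H3f3a in Rest control was above that of H3f3b. In Rest control libraries, the median level was 115 RPM per kb for H3f3b, 66.2 for H2az1, 65.4 for H3f3a, 64.7 for H1f2, 39.3 for H1f0 and 19.6 for H2bc4. The other clustered genes that passed lay between 0.431 and 9.84 RPM per kb (H1f3 and H4c9). The other 4 replacement genes were lower than H2bc4, at 16.7 for H2az2, 7.43 for H2ax, 3.95 for H2aj and 2.26 for H1f10, so the levels of the classes overlapped.

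The 64 clustered genes lay in 2 blocks of the GRCm39 assembly, 54 on chromosome 13 (chr13:21899933-24118834) and 10 on chromosome 3 (chr3:96127181-96177448). The 8 replacement genes were spread over 6 chromosomes (1, 3, 6, 9, 11 and 15). The histone stem-loop, a 16-base element whose ends pair around a loop rich in T, was looked for in the 200 bases after the stop codon on the coding strand. It stood in 57 of 64 clustered genes (89.1%), in 1 of 8 replacement genes (H2ax) and in 70 of 21655 protein-coding genes of the annotation (0.323%). It stood in 14 of the 15 clustered genes that passed the filter (all but H2bc21) and in 43 of the 49 that did not. The annotated gene ran more than 50 bases past the stem-loop in 12 of the 14 and in 12 of the 43. The stem-loops of the 6 clustered genes whose counts rose after EPS are shown here with H2ax and H4c9, whose counts fell, with the stem-loop in capitals and 5 bases on each side, from the GRCm39 sequence on the coding strand.
H1f3: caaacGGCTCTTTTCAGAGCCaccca
H3c6: aaaacGGCTCTTTTAAGAGCCacctc
H2ac8: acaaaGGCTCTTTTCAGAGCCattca
H2bc8: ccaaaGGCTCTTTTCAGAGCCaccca
H2bc7: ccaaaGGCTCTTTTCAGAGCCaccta
H3c4: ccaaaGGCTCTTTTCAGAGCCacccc
H2ax: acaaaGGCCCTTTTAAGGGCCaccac
H4c9: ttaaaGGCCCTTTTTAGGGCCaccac

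The letters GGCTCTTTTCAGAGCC were the most common form, in 36 clustered genes, including H1f2, H2bc4 and 5 of the 6 shown that rose. The sixth of these, H3c6, shared its form with 8 other clustered genes. H2ax had its own, and the form of H4c9 was found in H4c14 as well.

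EPS raised a group of neighbouring clustered genes in both control and Tug1 KD myotubes. The genes were H2ac8 (an H2A), H2bc8 and H2bc7 (H2B), H3c6 and H3c4 (H3) and H1f3 (a linker histone). In control, H1f3 was called at EPS 3h only, and some alternatives lost that call. In control myotubes the rise of H2ac8 was 10.0-fold right after EPS and 14.3-fold 3 h later, and in Tug1 KD myotubes it was 36.7-fold and 37.7-fold. These folds are relative to low Rest levels, 0.258 to 1.48 RPM in control and 0.107 to 0.866 RPM in Tug1 KD. A difference in the rise of H2ac8 between the LNAs was not called at either time. Of the 15 clustered genes tested, 5 were higher and 1 was lower at EPS 0h in control (38.9% of all 13995 genes tested were called in that comparison, 20.5% higher and 18.4% lower), and 6 were higher and 4 lower at EPS 3h (52% of all genes called, 26.1% higher and 25.9% lower). In Tug1 KD, 7 were higher and 2 lower at EPS 0h (45.6% of all genes called, 24.4% higher and 21.2% lower), and 6 higher and 2 lower at EPS 3h (52.1% of all genes called, 26.2% higher and 25.9% lower). The totals of 6, 10, 9 and 8 of 15 called were near or somewhat above these background shares, so the count of calls is not by itself a result about histone genes. The median log2FC of the 15 was 0.07, 0.03, 0.35 and -0.03 in these 4 comparisons in the order given, against -0.03, -0.02, -0.03 and -0.04 for all genes tested. H2bc7 and H3c6 reached 1 RPM in 0 of the 12 Rest libraries and in all 24 EPS libraries, and H2ac8 in 4 of 12 and 24 of 24. For these 3 genes, passing the filter already required a higher level after EPS.

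H2ac8 (ENSMUSG00000069272, chr13:23754691-23755394, minus strand, no intron) ran from 0.258 to 1.48 RPM in Rest control (median 1.01), and the Rest Tug1 KD libraries held 0.107 to 0.866 RPM (median 0.385). At EPS 0h it ran from 2.17 to 17.3 RPM in control (median 9.13) and from 5.91 to 29.9 RPM in Tug1 KD (median 15.0), and at EPS 3h from 4.68 to 29.5 RPM (median 11.5) and from 5.82 to 33.3 RPM (median 15.5). Every EPS library was above every Rest library of the same LNA, though passing the filter already required a higher level of H2ac8 after EPS. In control the log2FC was 3.33 ± 0.56 for EPS 0h and 3.84 ± 0.56 for EPS 3h (FDR 1.19e-05 and 4.93e-07), and 5.20 ± 0.63 and 5.24 ± 0.63 in Tug1 KD (FDR 2.47e-08 and 9.20e-09).

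H2bc8 (ENSMUSG00000058385, chr13:23755570-23756187, plus strand, no intron) is the divergent neighbour of H2ac8. At Rest its lowest, median and highest values were 1.03, 1.80 and 2.77 RPM in control and 0.672, 1.48 and 1.94 RPM in Tug1 KD. At EPS 0h the lowest, median and highest values were 2.47, 8.54 and 17.1 RPM in control and 5.35, 12.3 and 21.7 RPM in Tug1 KD, and at EPS 3h they were 4.18, 7.65 and 27.5 RPM and 3.58, 9.68 and 28.2 RPM. The groups overlapped only at EPS 0h in control, where the lowest EPS library lay below the highest Rest library. The log2FC was 2.36 ± 0.56, 2.74 ± 0.56, 3.19 ± 0.57 and 3.14 ± 0.57 (control EPS 0h, control EPS 3h, Tug1 KD EPS 0h and Tug1 KD EPS 3h), with FDR of 9.02e-04 or below.

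For both genes the levels after EPS went with the replicate number. At EPS 0h in control, replicates 1 to 3 had a median of 16.6 RPM for H2ac8 and 15.4 RPM for H2bc8, and replicates 4 to 6 had medians of 5.04 and 3.46 RPM. In the first 3 replicates alone H2ac8 rose by 3.53 and in the last 3 alone by 2.76 on the log2 scale, and H2bc8 by 2.82 and 1.23, each with FDR under 0.05. At EPS 3h in control, the rise of H2ac8 was 4.11 in the first 3 and 3.14 in the last 3 on the log2 scale, and that of H2bc8 was 3.23 and 1.60. The direction was thus the same in both sets, and the log2FC was the larger in replicates 1 to 3. The difference between the sets was not tested. Whether the sets are the 2 experiments was not tested.

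H2bc7 (ENSMUSG00000069268, chr13:23757910-23758370, minus strand) had medians of 0.541 and 0.470 RPM at Rest in control and Tug1 KD, 2.76 and 3.51 RPM at EPS 0h, and 3.58 and 4.34 RPM at EPS 3h. The Rest libraries held 0.215 to 0.935 RPM and the EPS libraries 1.68 to 7.76 RPM, with no overlap. Its log2FC was 2.23 ± 0.32 and 2.80 ± 0.32 at EPS 0h and 3h in control, and 2.80 ± 0.32 and 3.06 ± 0.32 in Tug1 KD (FDR 1.01e-06, 3.75e-09, 9.66e-09 and 5.63e-10). H3c6 (ENSMUSG00000069273, chr13:23745708-23746543, minus strand) went from medians of 0.468 and 0.236 RPM at Rest to 1.51 and 1.72 RPM at EPS 0h and 3.02 and 3.62 RPM at EPS 3h. Here too Rest and EPS libraries of an LNA did not overlap, and the median at EPS 3h was above that at EPS 0h. The Rest libraries held 0.0517 to 0.693 RPM and the EPS libraries 1.14 to 5.43 RPM. The log2FC of H3c6 was 1.82 ± 0.29 and 2.60 ± 0.28 in control, and 2.84 ± 0.31 and 3.99 ± 0.30 in Tug1 KD (FDR 4.46e-06, 1.04e-09, 4.18e-09 and 2.41e-13). Both H2bc7 and H3c6 passed the filter through their EPS libraries only. The lack of overlap and the FDR thus describe the rise and are not separate support for it.

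The outer genes of the group had smaller log2FC. H3c4 (ENSMUSG00000099583, chr13:23759937-23761855, plus strand) had medians of 2.38 and 1.95 RPM at Rest and between 3.82 and 4.73 RPM after EPS, with log2FC of 0.71 ± 0.17, 0.73 ± 0.17, 1.15 ± 0.17 and 1.08 ± 0.17 in the order of H2bc8 (FDR of 8.46e-04 or below). Rest and EPS libraries overlapped in control and did not in Tug1 KD. In replicates 1 to 3 alone, the rise of H3c4 at EPS 0h in control was 0.50 on the log2 scale (FDR 0.113). H1f3 (ENSMUSG00000052565, chr13:23737436-23744860, plus strand) had medians of 3.20 and 2.34 RPM at Rest and between 4.65 and 5.19 RPM after EPS. It rose in Tug1 KD at both times (log2FC 1.06 ± 0.28 and 1.39 ± 0.28, FDR 0.00245 and 8.46e-05). In control, its log2FC was 0.64 ± 0.27 at both times, with FDR 0.0619 at EPS 0h, where the groups did not overlap (3.11 to 3.98 and 4.14 to 7.06 RPM), and 0.0489 at EPS 3h, where they did (2.44 to 9.08 RPM). The call at EPS 3h did not hold with limma-voom (FDR 0.104), with library size as the only scaling (FDR 0.141) or in replicates 1 to 3 alone (FDR 0.112). The call of H1f3 in Tug1 KD at EPS 0h was lost in replicates 4 to 6 alone (log2FC 0.40, FDR 0.210).

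**Figure D2:**
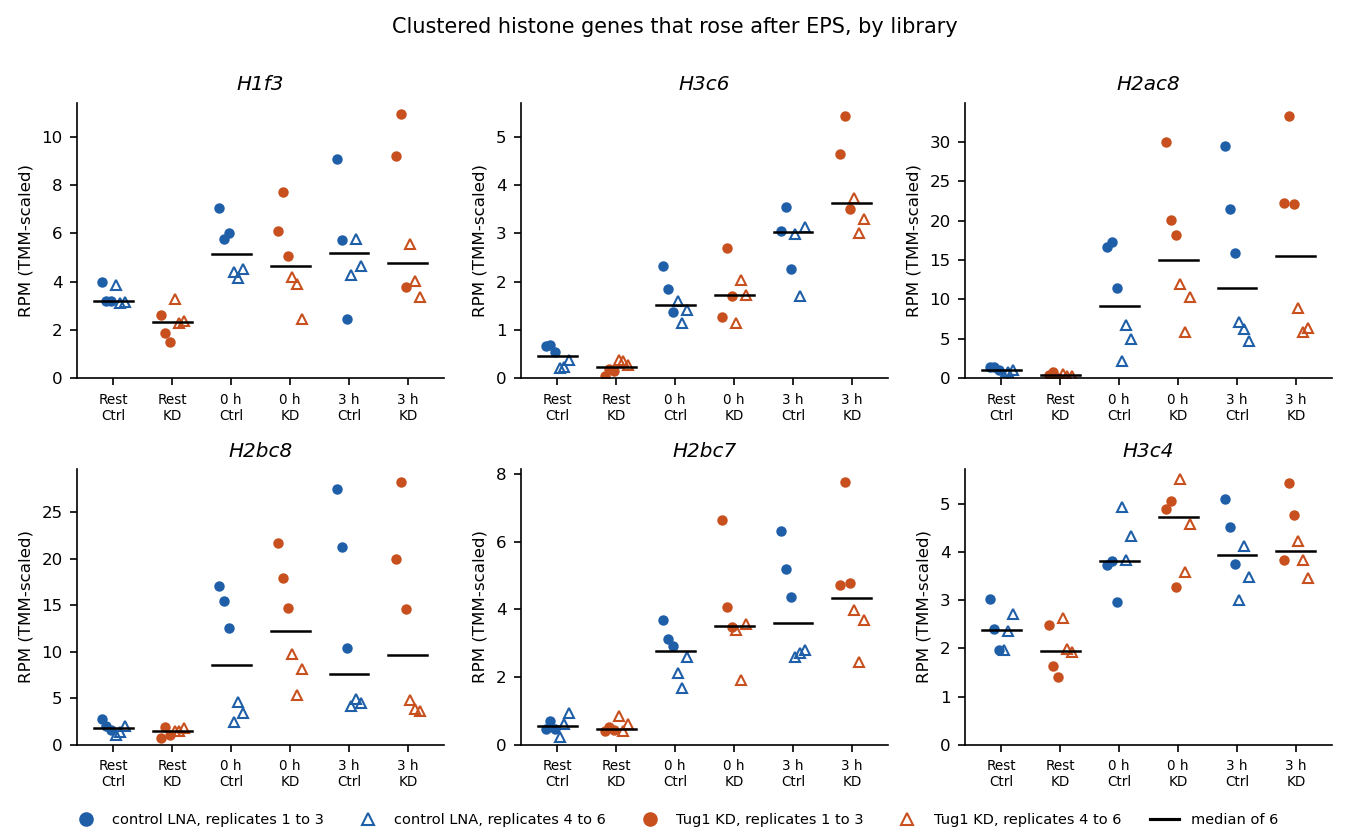
RPM in each of the 36 libraries (vertical axis, TMM-scaled, linear) for the 6 clustered genes that rose after EPS, by group. Filled circles are replicates 1 to 3, open triangles replicates 4 to 6 and lines the median of 6. H2ac8 and H2bc8 show the widest spread after EPS, with the median of replicates 1 to 3 above that of replicates 4 to 6, while H3c6 reaches its highest levels at EPS 3h.

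These 6 genes were neighbours among the histone genes that passed the filter. Together they spanned chr13:23737436-23761855, a stretch of 24.4 kb from H1f3 to H3c4, which was delimited after the values were seen and is therefore given as a description. It was drawn around the 6 genes that were called higher at EPS 3h under both LNAs, so that count follows from how it was chosen. H2bc7, H3c6 and H2ac8 passed the filter through their EPS libraries. Outside the stretch, H4c14 was higher at EPS 0h in Tug1 KD. The nearest passing genes on either side were H4c8 and H2bc6, neither of which was called after EPS. These edges depend on the filter. H4c6 (chr13:23735432-23735822), which did not pass, lies between H4c8 and H1f3. In the fit without a filter H4c6 was called higher at EPS 3h under both LNAs. H3c8, which lies between H4c8 and H1f3 as well and did not pass, was called higher in Tug1 KD in that fit. The stretch held 1 more histone gene, H2ac7, which did not pass. Its counts summed to 54, 45, 54, 62, 35 and 52 over the 6 libraries of Rest control, Rest Tug1 KD, EPS 0h control, EPS 0h Tug1 KD, EPS 3h control and EPS 3h Tug1 KD. H2ac7 is the divergent partner of H2bc7. At EPS 3h its counts were 13, 12, 7, 1, 0 and 2 in control replicates 1 to 6, lower in the last 3, and it was not called in the fit without a filter.

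The sum over the 7 genes of the stretch ran from 7.98 to 12.7 RPM in Rest control (median 9.94) and from 5.05 to 9.45 RPM in Rest Tug1 KD (median 7.38). It ran from 17.8 to 51.5 and from 22.8 to 71.6 RPM at EPS 0h (medians 29.9 and 41.6), and from 23.3 to 81.3 and from 23.2 to 92.4 RPM at EPS 3h (medians 32.5 and 42.8). The other 57 clustered genes summed to medians of 196, 214, 186, 181, 172 and 176 RPM in the 6 groups in the order used for H2ac7, and without H1f2 and H2bc4 the medians lay between 29.2 and 32.6 RPM. The sum over all 64 clustered genes had group medians between 206 and 237 RPM, and the ranges of all groups overlapped. The stretch went from a median of 0.830% of histone RPM in Rest control to 2.89% at EPS 3h in control, and from 0.596% to 4.04% in Tug1 KD. Because the stretch was drawn around genes called higher at EPS 3h, the rise of its sum and share follows from that choice. These values give its size only.

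**Figure D3:**
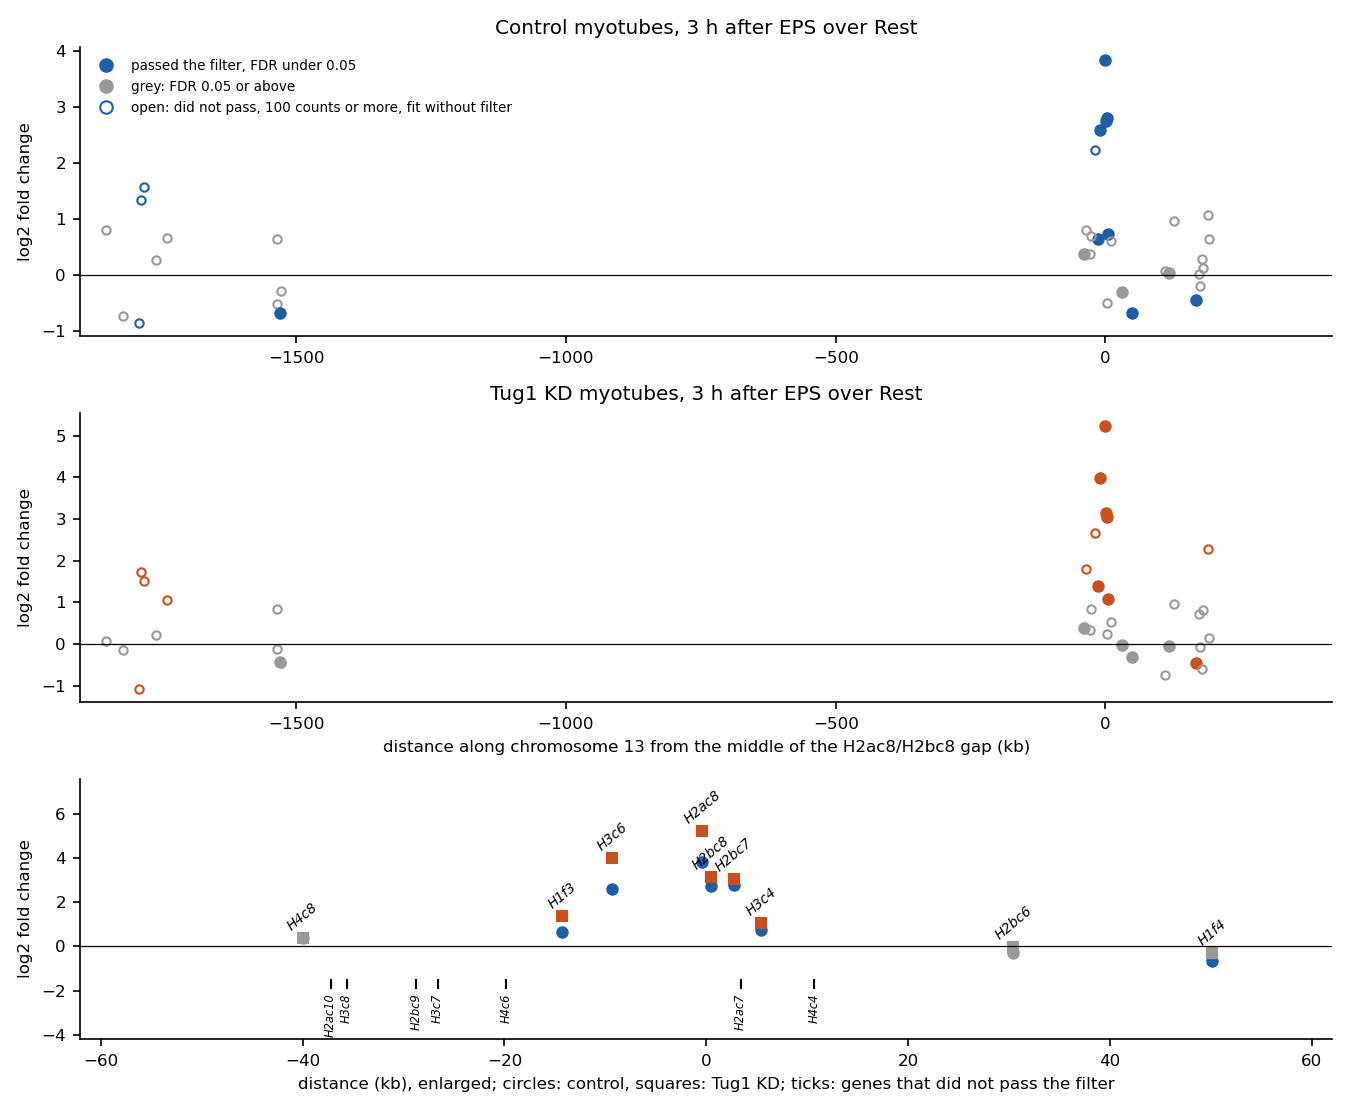
Log2 fold change at EPS 3h over Rest (vertical axis) against distance along chromosome 13 from the middle of the gap between H2ac8 and H2bc8 (horizontal axis, kb), for control (top), Tug1 KD (middle) and an enlargement of both (bottom). Filled symbols passed the filter and open symbols did not (at least 100 counts, fit without a filter), grey marks FDR of 0.05 or above, and H2bc1 is not drawn because it had no count in Rest Tug1 KD. The 6 filled genes called higher stand side by side around 0, between H4c8 and H2bc6, which were not called.

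The sequences between the divergent pairs are shown because each pair starts from either side of its gap. The gap between H2ac8 and H2bc8 (chr13:23755395-23755569, GRCm39, plus strand, 175 bases) and that between H2bc7 and H2ac7 (chr13:23758371-23758554, plus strand, 184 bases) lie between the annotated genes of each pair. Capitals mark the CCAAT box (ATTGG when read on the other strand), the TATAAA box and the heat shock element core GAANNTTC, searched on both strands.
H2ac8-H2bc8 gap: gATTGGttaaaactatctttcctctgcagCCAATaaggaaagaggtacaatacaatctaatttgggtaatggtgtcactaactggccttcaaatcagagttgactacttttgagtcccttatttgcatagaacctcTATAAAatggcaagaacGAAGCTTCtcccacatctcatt
H2bc7-H2ac7 gap: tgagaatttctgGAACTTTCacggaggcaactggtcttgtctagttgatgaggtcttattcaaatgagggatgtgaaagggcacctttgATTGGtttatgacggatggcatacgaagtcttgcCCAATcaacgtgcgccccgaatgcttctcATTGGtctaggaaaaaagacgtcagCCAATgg

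The first gap held 2 CCAAT, 1 TATAAA and 1 GAANNTTC match, and the second 4 CCAAT, 0 TATAAA and 1 GAANNTTC. In windows of 250 bases before to 50 after the annotated start, CCAAT stood in 51 of 64 clustered genes (39.8% of 21757 protein-coding promoters), TATAAA in 34 (13.7% of promoters) and GAANNTTC in 10 (7.77% of promoters). The AP-1 letters TGANTCA stood in 3 of 64 (7.51% of promoters) and the CRE letters TGACGTCA in 3 of 64 (2.10% of promoters). Within the stretch, GAANNTTC was in the windows of H2ac8, H2bc8, H2bc7 and H2ac7 and not in those of H1f3, H3c6 and H3c4. The windows of a divergent pair overlap in their gap, so the genes of a pair are not separate cases, and H2ac7 was not called. Outside the stretch, GAANNTTC was in the windows of H2ac6, H2ac11, H2bc4, H2bc11, H3c2, H4c4 and H3f3b. Of these, H2bc4 was not called after EPS and H3f3b was lower. A match is a description of the letters in the window and was not tested against the response.

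Of the 9 clustered genes outside the stretch, 4 were lower in at least 1 comparison (H4c9, H4c14, H1f2 and H1f4), 1 of them (H4c14) was also higher in another, and 5 were not called after EPS. H4c9 was lower at EPS 0h in control and Tug1 KD and at EPS 3h in control (log2FC -0.72 ± 0.25, -0.69 ± 0.25 and -0.68 ± 0.25, FDR 0.0210, 0.0239 and 0.0209), with a median of 7.15 RPM in Rest control and 4.28 RPM at EPS 0h. At EPS 3h in Tug1 KD its log2FC was -0.43 ± 0.25 (FDR 0.156, and 0.00920 with the replicate number as a block). H4c14, an H4 gene on chromosome 3, had opposite calls at the 2 times in Tug1 KD. Its lowest, median and highest values were 2.75, 4.44 and 5.39 RPM in Rest control, 3.72, 6.00 and 6.84 RPM at EPS 0h and 1.71, 2.23 and 2.77 RPM at EPS 3h, where only its highest library overlapped Rest. In control its log2FC was 0.38 ± 0.22 at EPS 0h (FDR 0.179) and -0.92 ± 0.23 at EPS 3h (FDR 0.00113). In Tug1 KD it was 0.65 ± 0.22 (FDR 0.0154) and -0.66 ± 0.23 (FDR 0.0157). These calls depended on the replicates. At EPS 3h in control the call was lost in replicates 4 to 6 alone (FDR 0.0662). At EPS 0h in Tug1 KD the call was lost in replicates 4 to 6 alone (log2FC 0.15, FDR 0.731), and at EPS 3h in replicates 1 to 3 alone (log2FC -0.21, FDR 0.585).

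H1f2, the most abundant clustered gene, was lower at EPS 3h by 0.44 ± 0.18 in control and 0.46 ± 0.18 in Tug1 KD on the log2 scale (FDR 0.0441 and 0.0340). Its median was 101 RPM in Rest control (88.0 to 151) and 80.2 RPM at EPS 3h (59.3 to 109), and the groups overlapped. The call in Tug1 KD was lost in replicates 4 to 6 alone (log2FC -0.30, FDR 0.154). With the replicate number as a block H1f2 was lower at EPS 0h as well (FDR 0.0217 in control and 7.13e-04 in Tug1 KD). H2bc4 had medians between 58.9 and 63.8 RPM in all 6 groups and log2FC between -0.07 and 0.03 after EPS, with SE of 0.10. H1f4 was lower at EPS 3h in control and at EPS 0h in Tug1 KD (log2FC -0.68 ± 0.25 and -0.81 ± 0.25, FDR 0.0197 and 0.00743). Its range was 1.41 to 2.36 RPM in Rest control and 0.796 to 1.76 RPM at EPS 3h, and 1.17 to 2.49 RPM in Rest Tug1 KD and 0.698 to 1.78 RPM at EPS 0h, with overlap in both. Both calls of H1f4 were lost in replicates 4 to 6 alone (FDR 0.0648 and 0.0795). H2bc21, H2bc6, H3c15 and H4c8 were called in none of the 4 EPS comparisons, with log2FC between -0.44 and 0.38.

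Some clustered values cannot be assigned to 1 gene with certainty. Of all 150-base windows in the exons of H4c8, 97.2% occur also in other annotated genes, and the shares were 59.4% for H3c15, 39.0% for H2bc8, 26.8% for H3c6 and 24.5% for H2ac8. H2bc6 and H1f4 share 528 exonic bases on the same strand. Among the 49 clustered genes that did not pass the filter, 23 shared more than 50% of their windows. Matches on either strand were counted, so a gene on the opposite strand at the same place adds to these shares. For H4c8, the lncRNA Gm11335 on the opposite strand covers 98.1% of the exonic bases, and other H4 genes match as well. In stranded libraries such an overlap need not make a read ambiguous. Shares on the same strand alone were not tested. How the authors treated reads with several matches was not given in the sources used here.

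Of the 52 histone genes below the filter, 45 had at least 1 count and could be fitted without a filter. In that fit, 1 was higher and 3 were lower at EPS 0h in control, 5 and 4 at EPS 3h in control, 5 and 2 at EPS 0h in Tug1 KD, and 11 and 2 at EPS 3h in Tug1 KD. These were 8.89%, 20.0%, 15.6% and 28.9% of the 45, where 15.6%, 28.9%, 19.7% and 32% of all 39727 genes in that fit and 7.14%, 18.4%, 9.07% and 21% of the 25732 below the filter were called. Of the latter, 5.52% were higher and 1.62% lower at EPS 0h in control, 15.8% and 2.61% at EPS 3h in control, 7.43% and 1.64% at EPS 0h in Tug1 KD, and 18.7% and 2.23% at EPS 3h in Tug1 KD. The called genes with no Rest counts in 1 or both LNAs included H2bc1 and H2ac1, a divergent pair of testis histone genes at the far end of the cluster (chr13:24117756-24118139 and chr13:24118445-24118834). H2bc1 had 6 counts over the 6 Rest control libraries, 18 at EPS 0h and 56 at EPS 3h, and in Tug1 KD it had 0, 39 and 108. H2ac1 had 0, 4 and 34 counts in control and 0, 9 and 25 in Tug1 KD. Against a floor of 3 counts over the 6 Rest libraries, H2bc1 in Tug1 KD was higher by at least 12.5-fold right after EPS and by at least 37.2-fold 3 h later, and H2ac1 at EPS 3h by at least 11.4-fold in control and at least 8.61-fold in Tug1 KD. H2ac1, with 72 counts in all, was named after its values were seen because it is the partner of H2bc1.

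H3c11 had 62 counts in Rest control and 146 at EPS 3h, and 41 and 132 in Tug1 KD (log2FC 1.34 and 1.74, FDR 8.98e-04 and 4.48e-05). H4c6 had 9 and 43 counts in control and 6 and 40 in Tug1 KD (FDR 0.00192 and 5.34e-04), and H2bc22 had 12 and 35, and 10 and 29 (FDR 0.0282 and 0.0428). H3c8 rose in Tug1 KD, from 19 counts at Rest to 84 at EPS 0h and 65 at EPS 3h (FDR 5.95e-04 and 0.00225), while it had 26, 58 and 44 counts in control. H2bc12 had 37, 108 and 32 counts in Tug1 KD at Rest, EPS 0h and EPS 3h (FDR 0.00354 at EPS 0h) and 45, 88 and 29 in control. H2ac12 had 15 counts in Rest control and 51 at EPS 0h (FDR 0.00893). H4c18 rose at both times and H4c1 at EPS 3h in Tug1 KD (FDR 0.0439, 0.0462 and 0.00485). H1f5, a linker histone of dividing cells, had 155 counts in Rest control and fell to 81 and 80 after EPS (FDR 0.0401 and 0.0214) and from 138 to 61 at EPS 3h in Tug1 KD (FDR 0.00415). H2ac6 fell from 138 to 63 counts at EPS 0h in Tug1 KD (FDR 0.00771). H1f9, one of the germ cell H1 genes, fell from 62 to 22 counts at EPS 3h in control (FDR 0.00828), and H1f8 had between 11 and 31 counts per group. With 100 or more counts but no call in this fit were H1f1, H2ac4, H2ac7, H2bc3, H2bc9, H2bc11, H3c2, H3c3, H3c7, H3c10, H4c3, H4c4, H4c12 and H4c17. At a few counts per library these values carry wide counting error. The remaining EPS calls were of genes under 100 counts. For the knockdown this fit called 1 of the 45, H2bc15 at EPS 0h (0 counts in control and 11 in Tug1 KD, FDR 0.0367), which is named after its values were seen.

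Of the 8 replacement genes, 0 were higher and 3 lower at EPS 0h in control, 1 higher and 4 lower at EPS 3h in control, 0 higher and 4 lower at EPS 0h in Tug1 KD, and 1 higher and 3 lower at EPS 3h in Tug1 KD. Their median log2FC was -0.24, -0.34, -0.43 and -0.31 in these comparisons. Among all genes, 20.5%, 26.1%, 24.4% and 26.2% were called higher and 18.4%, 25.9%, 21.2% and 25.9% lower. In either direction, 38.9%, 52%, 45.6% and 52.1% of all genes were called. With 8 genes tested, such counts are not by themselves a result about replacement histone genes. H2ax, H1f0 and H3f3b were lower in all 4 comparisons.

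H2ax encodes H2A.X, the H2A variant phosphorylated at DNA breaks, and its gene makes both a stem-loop and a polyadenylated mRNA. Its lowest, median and highest values were 8.20, 10.3 and 13.4 RPM in Rest control, 3.67, 5.44 and 6.54 RPM at EPS 0h and 2.20, 3.85 and 4.32 RPM at EPS 3h. In Tug1 KD they were 6.30, 9.32 and 10.8 RPM, then 2.56, 4.07 and 4.57 RPM, then 1.43, 2.36 and 3.97 RPM. No EPS library was as high as a Rest library of the same LNA. The log2FC was -0.97 ± 0.19 and -1.58 ± 0.20 in control, and -1.16 ± 0.20 and -1.78 ± 0.21 in Tug1 KD (FDR 1.46e-04, 3.40e-08, 1.10e-05 and 4.41e-09). In replicates 1 to 3 alone it fell by 1.92 at EPS 3h in control and in replicates 4 to 6 alone by 1.23 on the log2 scale.

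H1f0 encodes H1.0, the linker histone of differentiated cells. Its median was 80.7 RPM in Rest control (68.0 to 88.5), 60.2 RPM at EPS 0h (48.0 to 69.4) and 40.3 RPM at EPS 3h (33.6 to 57.7), and 84.9, 52.1 and 40.5 RPM in Tug1 KD. At EPS 3h the groups did not overlap under either LNA. It fell by 0.44 ± 0.13 and 0.87 ± 0.13 in control and by 0.65 ± 0.13 and 1.02 ± 0.13 in Tug1 KD on the log2 scale (FDR 0.00567, 4.69e-07, 7.21e-05 and 2.40e-08). The call at EPS 0h in control did not hold in replicates 4 to 6 alone (log2FC -0.32, FDR 0.105).

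H3f3a and H3f3b encode the same H3.3 protein, and of the pair H3f3b was called and H3f3a was not. H3f3b had medians of 347 RPM in Rest control (298 to 394), 240 RPM at EPS 0h (218 to 298) and 252 RPM at EPS 3h (207 to 284). In Tug1 KD the medians were 338, 205 and 198 RPM, and Rest and EPS libraries did not overlap under either LNA. It fell by 0.46 ± 0.10 and 0.50 ± 0.10 in control and by 0.71 ± 0.10 and 0.76 ± 0.10 in Tug1 KD on the log2 scale (FDR 4.46e-04, 9.93e-05, 6.44e-07 and 9.11e-08). The sets of 3 replicates gave log2FC of -0.44 and -0.48 in control at EPS 0h, and in Tug1 KD at EPS 3h -0.74 and -0.76. H3f3a had medians of 400, 427 and 439 RPM in control and 433, 420 and 392 RPM in Tug1 KD, with log2FC of 0.03 ± 0.09, 0.06 ± 0.09, -0.09 ± 0.09 and -0.12 ± 0.09 (FDR of 0.277 or above). Scaled by library size alone, H3f3a was lower at EPS 3h in Tug1 KD (log2FC -0.28, FDR 0.00716). The sum of both genes had a median of 731 RPM in Rest control and 704 RPM at EPS 3h, and 775 and 588 RPM in Tug1 KD.

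Neither H2A.Z gene was called after EPS. H2az1 had medians of 134, 120 and 138 RPM in control and 131, 111 and 119 RPM in Tug1 KD, with log2FC between -0.25 and -0.16 and SE of 0.18. H2az2 had medians of 57.1, 58.6 and 58.0 RPM in control and 49.1, 46.2 and 47.2 RPM in Tug1 KD, with log2FC between -0.03 and 0.09 and SE of 0.11. The groups overlapped for both genes.

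H2aj, H1f10 and H2ax were the least abundant replacement genes. H2aj, a replication-independent H2A, had medians of 7.50 RPM in Rest control (5.32 to 12.7), 7.31 RPM at EPS 0h (4.73 to 9.11) and 12.5 RPM at EPS 3h (highest 15.3), and 6.42, 6.19 and 12.6 RPM in Tug1 KD. It rose at EPS 3h by 0.60 ± 0.22 in control and 0.84 ± 0.23 in Tug1 KD (log2FC, FDR 0.0237 and 0.00225). The call in control was lost with library size as the only scaling (FDR 0.102). The rise rested on replicates 4 to 6, where it was 1.11 and 1.38, against 0.25 and 0.30 in replicates 1 to 3 (FDR 0.438 and 0.356). At EPS 0h in control H2aj had opposite calls in the sets, -0.96 in replicates 1 to 3 and 0.58 in replicates 4 to 6 (FDR 0.00958 and 0.0211). H1f10, the linker histone H1.10, had medians of 2.75, 2.20 and 1.40 RPM in control and 1.91, 1.28 and 1.42 RPM in Tug1 KD. It was lower at EPS 3h in control and at EPS 0h in Tug1 KD (log2FC -0.77 ± 0.23 and -0.70 ± 0.24, FDR 0.00517 and 0.0156), with overlapping groups, and neither call held in replicates 4 to 6 alone (FDR 0.197 and 0.417).

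**Figure D4:**
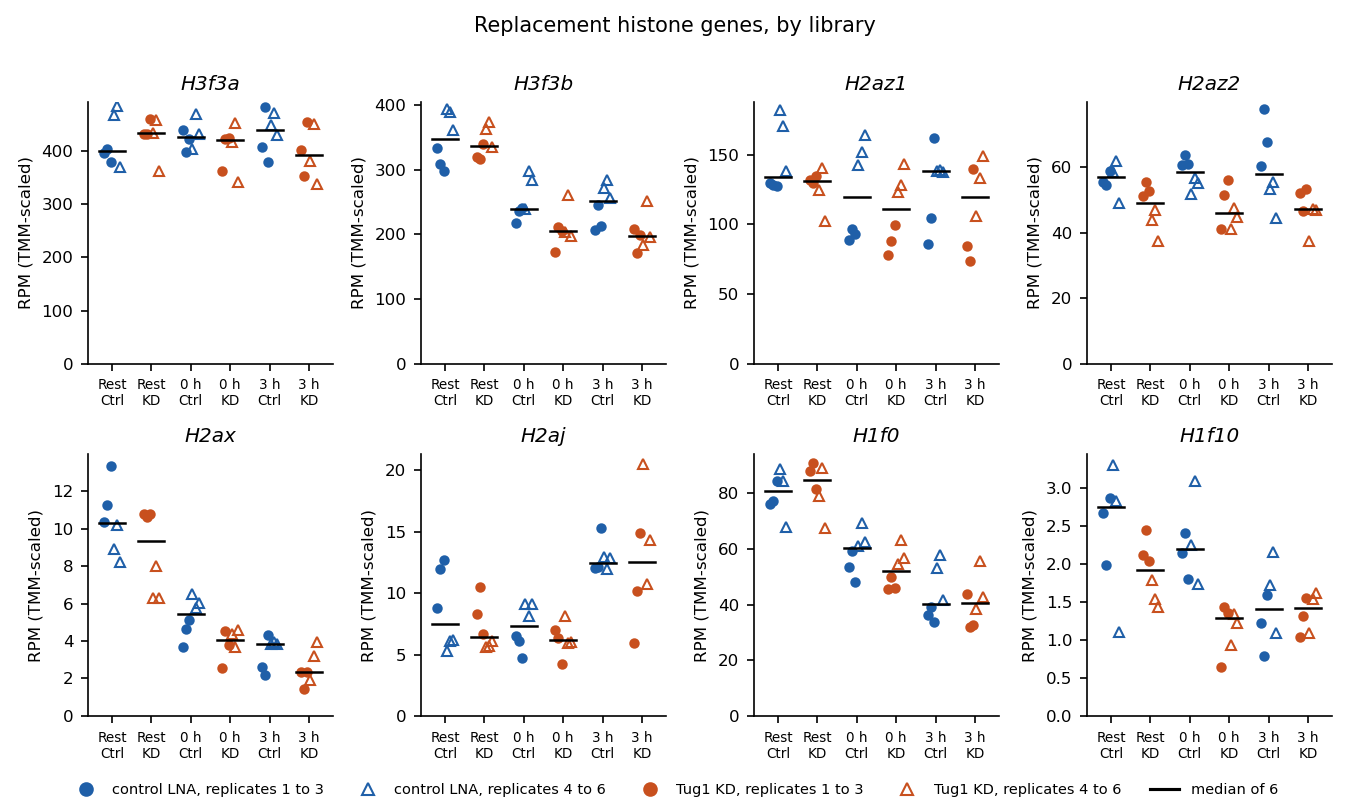
RPM in each of the 36 libraries (vertical axis, TMM-scaled, linear) for the 8 replacement histone genes, by group. Filled circles are replicates 1 to 3, open triangles replicates 4 to 6 and lines the median of 6. H3f3a has medians between 392 and 439 RPM while H3f3b, H2ax and H1f0 are lower after EPS.

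**Figure D5:**
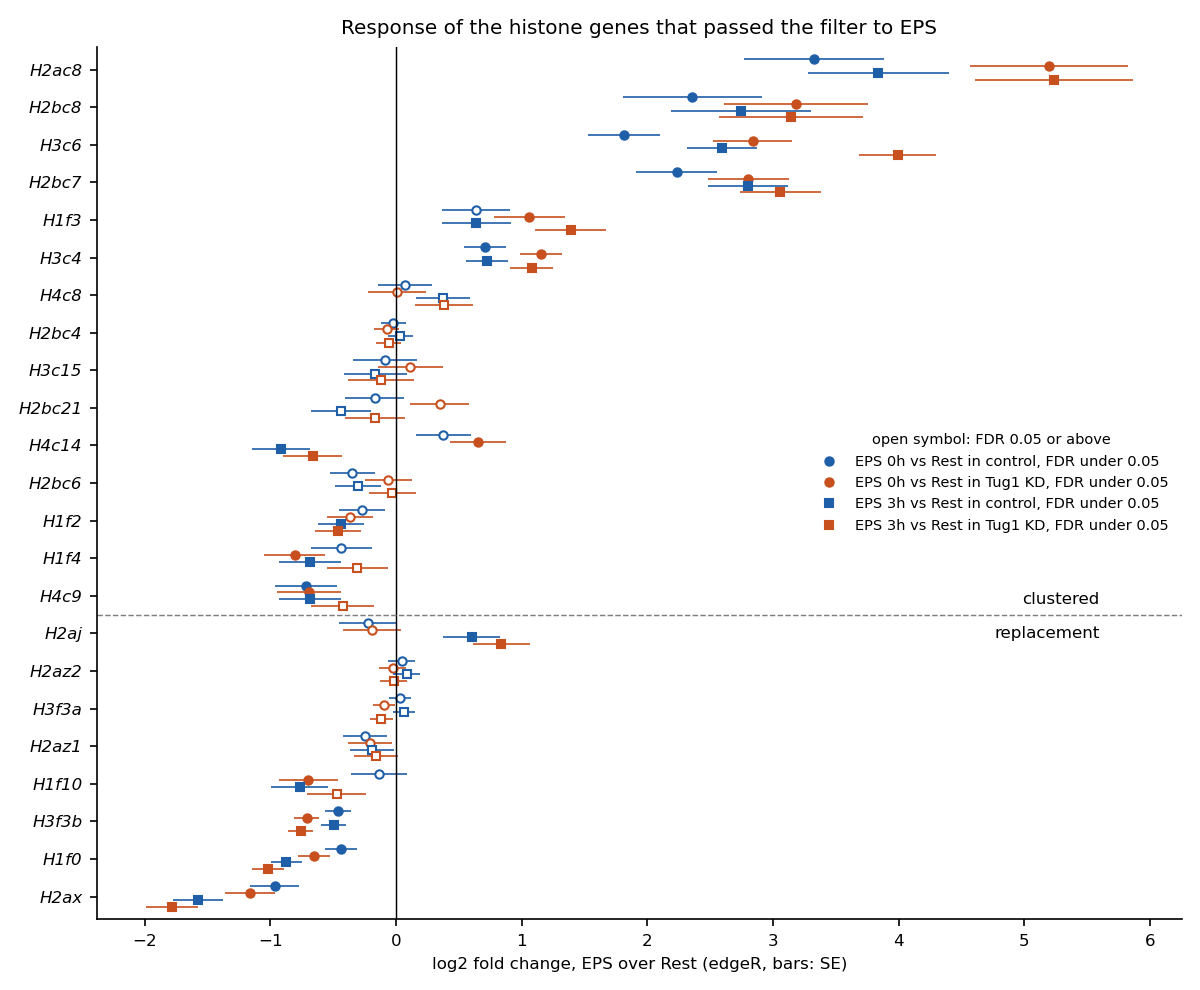
Log2 fold change of EPS over Rest (horizontal axis, bars: SE) for the 23 histone genes that passed the filter, in 4 comparisons of 6 against 6 libraries each, with clustered genes above the dashed line and replacement genes below. Filled symbols have an FDR under 0.05. The 6 genes of the stretch stand to the right of 0 and H2ax, H1f0 and H3f3b to the left in all 4 comparisons.

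Few histone genes were called for the knockdown itself. At Rest 1 of 23 was called, where 10% of all genes were (5.54% higher and 4.47% lower). At EPS 0h 1 of 23 was called, where 14.3% of all genes were (8.25% higher and 6.07% lower), and at EPS 3h 1 of 23, where 11.5% were (6.38% higher and 5.11% lower). All 3 were lower, and with 23 genes tested such counts are not by themselves a result about histone genes. The gene called at Rest was H2bc6, with a median of 3.51 RPM in control (2.61 to 4.59) and 2.23 RPM in Tug1 KD (1.78 to 3.20) and a log2FC of -0.59 ± 0.18 (FDR 0.0305). Its groups overlapped, and the call was lost in either set of 3 replicates (FDR 0.268 and 0.0862). At EPS 0h it was H1f10, for which no Tug1 KD library (0.640 to 1.44 RPM) reached the control libraries (1.73 to 3.09 RPM), with a log2FC of -0.94 ± 0.23 (FDR 0.00463). In neither set of 3 replicates alone was it called, and the smaller FDR was 0.0551. At EPS 3h it was H2az2, with 44.4 to 77.9 RPM in control and 37.5 to 53.5 RPM in Tug1 KD (log2FC -0.34 ± 0.11, FDR 0.0359, and 0.283 in replicates 4 to 6 alone).

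With the replicate number as a block, 4 histone genes were called at EPS 0h and 2 each at EPS 3h and at Rest, where H2az2 was added (log2FC -0.24, FDR 0.0341). In the blocked fit 24.3%, 20.6% and 17.2% of all genes were called in these comparisons. Besides H1f10, H2az2 and H3f3b were then lower in Tug1 KD at EPS 0h (log2FC -0.31 and -0.28, FDR 0.00537 and 0.00458) and H2ac8 was higher (log2FC 0.78, FDR 0.0104, against 0.359 without the block). At EPS 3h the added gene was H3f3b (log2FC -0.29, FDR 0.00420). The block also called H1f3 higher and H1f4 lower at EPS 0h in control (FDR 0.0164 and 0.0399) and H2bc21 lower at EPS 3h in control (FDR 0.0381). In control, the blocked fit called 49.9% of all genes right after EPS and 61.2% of them 3 h later.

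The test of the interaction asked whether the EPS response differed between LNAs. It was called for 0 of 23 histone genes at either time by edgeR and by every alternative run, with 0% and 0.00715% of all genes called, and 2 and 1 of the 23 had an unadjusted p under 0.05. H3c6 had the smallest p, with log2 differences of 1.02 ± 0.44 and 1.40 ± 0.43 for EPS 0h and 3h (FDR 1.00 and 0.815), the positive sign meaning a larger log2FC in Tug1 KD. For H2ac8 the difference at EPS 0h was 1.87 ± 0.86 (FDR 1.00). The EPS comparisons within an LNA share their Rest libraries, and their values are given side by side without a test of likeness.

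Single genes that make or end histone mRNA were called after EPS in both directions, at a rate near that of all genes. Of 24 genes of histone transcription and 3' end processing, 7 were higher and 2 lower at EPS 0h in control, 9 and 2 at EPS 3h in control, and 9 and 3 at each time in Tug1 KD, with median log2FC between 0.09 and 0.19. These were 37.5%, 45.8%, 50% and 50% of the list, against the 38.9%, 52%, 45.6% and 52.1% of all genes called in control at EPS 0h and 3h and in Tug1 KD at EPS 0h and 3h. Zfp473, whose product binds the U7 particle, went from medians of 1.28 and 1.03 RPM at Rest to 7.67 and 6.19 RPM at EPS 0h and 10.2 and 11.8 RPM at EPS 3h. Its log2FC was 2.24 and 2.78 in control and 2.23 and 3.03 in Tug1 KD, all called. Slbp, the stem-loop binding protein, rose by 0.54 and 0.43 in control and 0.53 and 0.53 in Tug1 KD. Casp8ap2 (FLASH, a histone pre-mRNA processing factor) rose by 0.86 and 0.63 in control, Pcf11 (a transcript end factor) by 0.67 and 1.39, and Eri1 (a nuclease that trims the stem-loop end) by 0.39 and 0.71. Cpsf6 (a cleavage factor subunit) rose by 0.48 and 0.77 and Ncbp1 (the large cap-binding subunit) by 0.36 and 0.37 in control. Lower were Srrt (ARS2, a partner of the cap-binding complex) at EPS 0h in control and Tug1 KD (-0.33 and -0.39), and Ctif, a translation factor of capped mRNA, at both times in control (-0.31 and -0.71) and Tug1 KD (-0.25 and -0.58). The U7 proteins Lsm10 and Lsm11 were lower at EPS 3h in Tug1 KD (-0.65 and -0.47), Lsm11 at EPS 0h in Tug1 KD as well (-0.36) and Lsm10 at EPS 3h in control (-0.51). Npat, the activator of clustered histone genes at S phase entry, was not called, with log2FC between 0.26 and 0.51. Under knockdown, Ctif, Cstf2t and Nelfe were higher at Rest, EPS 0h and EPS 3h, by 0.42 to 0.95 on the log2 scale, and the other 21 were not called (12.5% of the list in each, against 10%, 14.3% and 11.5% of all genes).

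Among 29 tested S-phase genes, 10 were higher and 1 lower at EPS 0h in control, 11 and 6 at EPS 3h in control, 10 and 3 at EPS 0h in Tug1 KD, and 12 and 3 at EPS 3h in Tug1 KD. These shares of 37.9%, 58.6%, 44.8% and 51.7% were near the 38.9%, 52%, 45.6% and 52.1% of all genes. Mcm4, a subunit of the replicative helicase, was higher in all 4 by 0.74 to 0.79 on the log2 scale, and Cdc6, which loads that helicase, by 0.88 to 1.26. Under knockdown 0 were higher, and 0, 2 and 3 were lower at Rest, EPS 0h and EPS 3h. These were 0%, 6.9% and 10.3% of the list, against 10%, 14.3% and 11.5% of all genes. Of 27 histone chaperones, 1 was higher and 2 lower at EPS 0h in control, 6 and 4 at EPS 3h in control, 6 and 0 at EPS 0h in Tug1 KD, and 6 and 4 at EPS 3h in Tug1 KD. These were 11.1%, 37%, 22.2% and 37% of the list, each below the share of all genes called in the same comparison. Ubn1, a subunit of the HIRA complex that deposits H3.3, was higher in all 4 (0.47 to 0.75), and Cabin1, of the same complex, was lower at both times in control (-0.41 and -0.64). Under knockdown 2, 4 and 4 chaperones were higher and 0, 2 and 2 lower at Rest, EPS 0h and EPS 3h. That was 7.41%, 22.2% and 22.2% of the list, where 10%, 14.3% and 11.5% of all genes were called. Ipo9, an importin, and Ubn2 were higher at Rest, EPS 0h and EPS 3h (0.34 to 0.75). Of the histone variants outside the name rule, 3 could be tested. Of these, Cenpa (the centromeric H3) was lower in all 4 (-0.60 to -0.67), Macroh2a2 was lower at EPS 3h in control and Tug1 KD and at EPS 0h in Tug1 KD, and Macroh2a1 was not called.

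Markers of other cells moved with EPS at low levels. Their 6 genes summed to 3.29 to 5.95 RPM in Rest control and 8.17 to 12.6 RPM at EPS 3h in control, and to 1.61 to 2.73 and 8.66 to 15.4 RPM in Tug1 KD. Epcam, an epithelial gene, had a median of 0 RPM at Rest under both LNAs and 3.80 and 5.43 RPM at EPS 3h, and the median of Pecam1 (endothelial) rose from 0.355 to 1.80 RPM in control. The medians of Ptprc (leukocyte) and Rbfox3 (neuronal) were at or under 0.0905 RPM at Rest and at or under 0.572 RPM at EPS 3h. The median of Adipoq (adipocyte) was 0.0932 RPM in Rest control and 1.28 RPM at EPS 3h, and Cd68 (macrophage) fell from 3.65 to 2.34 RPM. Of the 8 proliferating myoblast markers, Mki67 was higher in all 4 EPS comparisons (log2FC 0.41 to 0.73), Ccnb1 was lower in all 4, Myf5 was higher at EPS 0h under both LNAs, Pax7 was lower at EPS 3h under both and higher at EPS 0h in Tug1 KD, and Cdk1, Top2a, Ccna2 and Birc5 were called in none. The part of these genes or of their cells in the histone values was not tested.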

How the data were processed

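RNA was measured in 36 poly-A selected, stranded libraries, 1 per well, in 6 groups of 6 named from the titles of the samples. Per the labels and the study's methods, the authors trimmed reads with fastp 0.14.1 after FastQC 0.11.7, aligned them to GRCm39 (Ensembl) with STAR 2.5 and deposited counts per gene for each library. The counting mode, the strand setting and the treatment of reads with several matches were not given in the sources used here. Rows with an identifier and no name (1492 rows, 0.0327% of counts) stayed in the table. Members and gene lists were chosen with earlier results of these data known.

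The 13995 genes that reached 1 RPM in 12 or more libraries were tested with edgeR 4.0.16 (R 4.3.3, quasi-likelihood F test, robust, TMM scaling, all 6 groups in 1 fit), and FDR is the Benjamini-Hochberg value over all of them at a threshold of 0.05. RPM are TMM-scaled. Errors of log2FC are SE taken as the absolute log2FC over the square root of the F statistic, and are approximate. The text names every histone gene that passed, gives values for those called and for all replacement genes, names genes below the filter from 100 counts, and names from the lists called processing genes or the 3 with the smallest FDR, except for an S-phase gene that is counted but not reported here by name. On simulated counts the test was checked before use. Alternatives were limma-voom 3.58.1, DESeq2 1.42.0, RLE or library size scaling, other filters, the replicate number as a block, the replicate set (1 to 3 or 4 to 6) as a term, and each set alone.

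Same-numbered libraries deviated together: over 6 pairs the correlation of deviations from the group mean was above 0.1 for every pair in 5 of 7 comparisons (lowest 0.127) but not for knockdown at Rest (lowest -0.0962) or EPS 3h against Rest in Tug1 KD (lowest 0.0724). The labels name no shared batch for a number. Correlations between libraries of different numbers are not given here, and a difference between the replicate sets could also make same-numbered libraries deviate together. The check therefore cannot decide whether libraries are paired by number, and the replicate block is an alternative fit only. No 2 libraries of a group agreed within sampling noise (lowest chi-square per degree of freedom 3.98 over 90 pairs). Positions, exon lengths, stem-loops and windows were read from GRCm39 and the GENCODE M39 annotation, a later release than the one the authors counted on.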

Additional observations from a re-analysis of the deposited data

Results flagged for a closer look

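Among 114 groups of 6 libraries (19 histone genes in 6 groups), 3 held a library far from the other 5 by Dixon's criterion (gap to the nearest library over the range of the group), where chance gives about 1 in 20 groups. H1f4 was at 1.17 RPM in Rest Tug1 KD replicate 2, with the next library at 2.17 RPM. H2aj was at 15.3 RPM in EPS 3h control replicate 3, with the next at 13.0 RPM. H3f3a was at 363 RPM in Rest Tug1 KD replicate 6, with the next at 432 RPM. No interaction between LNA and EPS was called for a histone gene.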

How the results depend on the processing

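Of the 64 clustered genes 49 did not pass the filter. Of these, 23 share over 50% of their windows with other genes on either strand, and RNA without a poly-A tail was selected against. Which of depth, shared sequence and tail limited them was not tested. Of 52 called results of single genes under 10 alternatives, 492 of 520 values kept direction and call, 28 lost the call and 0 reversed, with 12 of the losses in replicates 4 to 6 alone, 7 in replicates 1 to 3 alone and 5 without a filter. The replicate block lost 0 of the 52. Scaling by library size alone moved the median log2FC of all genes by -0.17 at EPS 3h in control and -0.16 in Tug1 KD.

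The number of histone genes called in EPS comparisons was 9 (control, EPS 0h), 15 (control, EPS 3h), 13 (Tug1 KD, EPS 0h) and 12 (Tug1 KD, EPS 3h). It stayed within 1.5 times that except in Tug1 KD without a filter (20 at EPS 0h and 26 at EPS 3h) and with a filter of 10 counts in 6 libraries (19 at EPS 3h), where more genes were tested. For knockdown, 1 histone gene was called in each comparison. At Rest it was 0 without a filter and 2 with the replicate block or in replicates 4 to 6 alone. At EPS 0h it was 2 with limma-voom, 3 with DESeq2, RLE scaling or library size alone, 2 without a filter, 4 with the replicate block or the replicate set as a term, 0 and 2 in the sets of replicates 1 to 3 and 4 to 6 alone. At EPS 3h it was 2 with DESeq2, library size alone, the replicate block or the set as a term, and 0 without a filter or in replicates 4 to 6 alone. The cause was not tested. The interactions stayed at 0 in every alternative.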
